A study of Homo sapiens with 10 samples.

Results

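Keratins and keratin-associated proteins (KRTAPs) were examined in HCT116, a human cell line established from a colorectal carcinoma, across ORC mutant lines and a wild-type line. The members were all genes named on the array whose symbol is KRT or KRTAP followed by a number, without pseudogenes, which gave 132 of 14884 named genes. Of these, 25 were keratins of chromosome 17, 22 were keratins of chromosome 12 and 85 were KRTAP genes, of which 12 lay on chromosome 11, 29 on chromosome 17 and 44 on chromosome 21. ORC1B14 and ORC1BP32 were labelled ORC1 mutants, ORC2B2 and ORC2BP8 were labelled ORC2 mutants, and the fifth line was labelled WT. All 5 lines were untreated and share the HCT116 background, and each had 2 arrays, titled biological replicates 1 and 2. ORC1 and ORC2 encode subunits of the origin recognition complex, which marks origins of DNA replication and helps to load the replicative helicase. The kind of mutation is not stated in the labels, and neither is whether a mutant line grew from 1 cell. Within 1 line, what belongs to the mutated gene and what to the line cannot be told apart.

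Keratins form the intermediate filaments of epithelial cells, and a filament is built from pairs of a type I (acidic) and a type II (basic) keratin. Human type I genes lie in the chromosome 17 cluster and type II genes in the chromosome 12 cluster, except KRT18, a type I gene at the end of the chromosome 12 cluster. KRT8, KRT18 and KRT19 are the keratins of simple epithelia, and KRT20 marks differentiated cells of the intestinal lining. Other keratins belong to stratified epithelia such as the epidermis or to hair, and KRTAPs form the matrix between the keratin filaments of the hair shaft.

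Each value is a log2 expression level of 1 probe set, and levels are compared only between arrays of the same probe set. Array medians over all probe sets lay between 3.87 and 3.96 and served as the line between dim and bright probe sets. Differences are log2 values, mutant line minus WT unless said otherwise, with the SE of the fit. They were tested with limma over 10797 genes, and a gene is called at a Benjamini-Hochberg adjusted p under 0.05. No read depth exists for arrays, and the number of arrays limits the precision. Nothing in the labels ties the replicates to separate cultures or extractions, so a p-value reflects only how far these samples scatter, which may be technical. That scatter is between arrays of the same line, also where lines are averaged. Differences among the averaged lines do not enter it. None of ORC1 to ORC6 was named on the array here (0 of 6), so the mutated genes themselves were not analysed here. In a bulk culture, fewer cells of a type and less RNA per cell cannot be told apart.

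Most members were dim in these cells. Of the 132 members, 70 were below the array median on all 10 arrays and 31 were at or above it on all 10, against 3700 and 9418 of the 14884 named genes. Among keratins, 7 of 25 on chromosome 17 and 5 of 22 on chromosome 12 were at or above the median on all 10 arrays, and so were 19 of 85 KRTAPs. The filter of at least 2 arrays at or above the median passed 53 members, namely 13 keratins of chromosome 17, 9 keratins of chromosome 12 and 31 KRTAPs. Of these, 8 were below the median on both WT arrays, so they passed only through mutant arrays, and differences of those 8 are in part fixed by the filter. KRT7 was among them, and so were KRTAP3-2, KRT10 and KRT39. The last 3 were chosen for mention after their values were seen. Over all 132 members without a filter, the median log2 difference from WT was 0.10 for ORC1B14, and it was 0.05 for ORC1BP32. It was 0.08 for ORC2B2 and 0.09 for ORC2BP8. The same medians over all 14884 genes were 0.04, 0.04, 0.03 and 0.04 in that order of lines.

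The simple-epithelial keratins were bright on every array. KRT18, the type I partner of KRT8, measured 11.88 and 11.23 in ORC1B14, 11.03 and 10.64 in ORC1BP32, 10.40 and 10.71 in ORC2B2, 10.71 and 10.63 in ORC2BP8, and 10.57 and 10.18 in WT. Both ORC1B14 arrays lay above both WT arrays, and the ORC2B2 arrays overlapped WT. The difference of ORC1B14 from WT was 1.17 ± 0.23 (SE) and missed the threshold of 0.05 (limma, adjusted p = 0.0566). It passed after quantile normalization (adjusted p = 0.0494) and without ORC1B14 replicate 2 (adjusted p = 0.0362). This probe set may not read KRT18 itself: the 20 probe sets numbered next to it all belong to genes of chromosome 3 (20 of 20), while the 20 beside the second KRT18 probe set all belong to chromosome 12. That second probe set measured 7.69 and 7.21 in ORC1B14 against 6.87 and 6.80 in WT, a difference of 0.61 ± 0.21 (adjusted p = 0.182).

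KRT19, a type I keratin of simple and glandular epithelia, measured 10.57 and 10.08 in ORC1B14, 10.05 and 9.80 in ORC1BP32, 10.13 and 10.05 in ORC2B2, 9.85 and 9.96 in ORC2BP8, and 9.75 and 9.27 in WT. All 8 mutant arrays lay above both WT arrays, by a narrow margin, and no comparison with WT passed the test. Its differences from WT were 0.82, 0.41, 0.58 and 0.40 in ORC1B14, ORC1BP32, ORC2B2 and ORC2BP8, with the lowest adjusted p in ORC1B14 (0.106). KRT8, the type II partner of KRT18, measured 6.56 and 5.97 in ORC1B14, 6.08 and 5.94 in ORC1BP32, 5.95 and 5.96 in ORC2B2, 6.10 and 5.82 in ORC2BP8, and 6.52 and 6.0 in WT. Here the replicates of ORC1B14 and of WT differed by more than the lines did, and the differences from WT ran from -0.31 in ORC2B2 to 0.003 in ORC1B14. KRT7, a type II keratin of ductal epithelia, measured 4.37 and 4.17 in ORC1B14, 4.19 and 3.93 in ORC1BP32, 3.95 and 4.05 in ORC2B2, 4.25 and 3.62 in ORC2BP8, and 3.84 and 3.14 in WT. It lay near the array median, and its differences from WT, between 0.45 and 0.79, passed no test. Both WT arrays lay below the median, so KRT7 passed the filter only through mutant arrays. The direction of its differences is in part fixed by the filter.

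Across the tested members, the calls against WT were few and all in 1 direction. At an adjusted p under 0.05, 1 of 53 members was higher in ORC1B14, where 0.583% of all genes tested were called in either direction and 0.185% were called higher. In ORC1BP32 limma called 0 of 53, against 0.0185% of all genes, with 5 members at an unadjusted p under 0.05 (9.43%, against 10.1% of all genes). In ORC2B2 4 of 53 were higher, against 0.333% of genes in either direction and 0.12% higher. In ORC2BP8 2 of 53 were higher, against 0.935% in either direction and 0.25% higher. For the mean of the 4 mutant lines against WT, 3 of 53 were higher, against 1.02% in either direction and 0.417% higher. No member was called lower in any of these 5 comparisons (0 of 53 in each), which share the WT arrays. Over all genes tested, 0.398%, 0.0185%, 0.213% and 0.685% were called lower in ORC1B14, ORC1BP32, ORC2B2 and ORC2BP8, and 0.602% in the mean. Counts of arrays gave a less distinct picture: 17, 12, 19 and 21 members had both arrays of ORC1B14, ORC1BP32, ORC2B2 and ORC2BP8 above both WT arrays, against 27.3%, 23.7%, 24.5% and 24.5% of all genes. As shares of the 53 members these are 32.1%, 22.6%, 35.8% and 39.6%. The counts include the 8 members that passed the filter only through mutant arrays, where the filter itself favours values above WT. Such genes were a larger share of the members than of all genes tested, so part of any excess may come from the filter. These array counts against WT were not made without the filter. All 8 mutant arrays lay above both WT arrays in 4 members (7.55%, against 7.96% of all genes), namely KRTAP2-3, KRT80, KRT19 and KRTAP3-2. Of these, KRTAP3-2 passed the filter only through mutant arrays. The 5 members called in any comparison were KRTAP2-3, KRTAP3-1, KRT80, KRT23 and KRT20.

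KRTAP2-3, a high-sulfur KRTAP of the chromosome 17 cluster, showed the largest difference of any tested member. It measured 8.53 and 7.19 in ORC1B14, 7.60 and 6.52 in ORC1BP32, 9.18 and 9.12 in ORC2B2, 9.66 and 9.40 in ORC2BP8, and 5.80 and 6.01 in WT. All 8 mutant arrays lay above both WT arrays, and the 4 ORC2 arrays lay above the 4 ORC1 arrays. It rose in ORC2BP8 by 3.63 ± 0.41 (SE), or 12.4-fold (adjusted p = 0.00516), and in ORC2B2 by 3.24 ± 0.41, or 9.47-fold (adjusted p = 0.0145). In ORC1B14 the difference was 1.96 (adjusted p = 0.0654) and in ORC1BP32 it was 1.16 (adjusted p = 0.386), so neither ORC1 line passed. The ORC1B14 difference was 1.29 without ORC1B14 replicate 1 and 2.63 without ORC1B14 replicate 2, where it passed (adjusted p = 0.0233). The mean of the 4 mutant lines was 2.50 ± 0.32 above WT (adjusted p = 0.0107). Without either WT array this last call was lost (highest adjusted p = 0.162). The ORC2B2 call was lost without either ORC2B2 array and without either WT array (highest adjusted p = 0.0828).

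The neighbouring gene KRTAP2-4, also of this subfamily, did not follow it. KRTAP2-4 measured 2.64 and 2.94 in ORC1B14, 2.84 and 2.55 in ORC1BP32, 5.99 and 4.45 in ORC2B2, 3.77 and 2.49 in ORC2BP8, and 4.0 and 3.66 in WT. It was highest on the ORC2B2 arrays, where both lay above WT, and all 4 ORC1 arrays lay below both WT arrays. KRTAP2-4 was at or above the array median on 3 of 10 arrays, those of ORC2B2 and WT replicate 1. It would not have passed the filter without the ORC2B2 arrays, so its ORC2B2 differences are in part fixed by the filter. Its differences from WT were -1.04, -1.13, 1.39 and -0.70 in ORC1B14, ORC1BP32, ORC2B2 and ORC2BP8, none past the test. KRTAP2-1 was below the array median on all 10 arrays and KRTAP2-2 was at or above it on 1 of 10, so neither was tested (both named after their values were seen). The KRTAP2 genes are close copies, and whether their probe sets tell them apart was not tested.

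The windows before these genes are shown because the copies share sequence there. In RefSeq (GRCh38.p14), the first 280 bases of the 300-base promoter windows of KRTAP2-1, KRTAP2-2, KRTAP2-3 and KRTAP2-4 share a run of 36 bases. It lies across the annotated start of transcription in KRTAP2-3 and directly before the start in KRTAP2-4. In KRTAP2-3 the run ends at the last of the 280 bases, and whether it goes on in the full windows was not tested. The windows of KRTAP2-3 (chr17:41060085-41060364, minus strand) and KRTAP2-4 (chr17:41065850-41066129, minus strand) are given 5′ to 3′ as 280 bases, 250 before and 30 after the start, with the shared run in capitals.
KRTAP2-3: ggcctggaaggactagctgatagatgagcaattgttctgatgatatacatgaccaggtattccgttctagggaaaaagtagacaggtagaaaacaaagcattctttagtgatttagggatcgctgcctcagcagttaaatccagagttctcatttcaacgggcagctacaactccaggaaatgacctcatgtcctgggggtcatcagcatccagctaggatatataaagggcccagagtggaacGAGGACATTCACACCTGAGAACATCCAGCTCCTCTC
KRTAP2-4: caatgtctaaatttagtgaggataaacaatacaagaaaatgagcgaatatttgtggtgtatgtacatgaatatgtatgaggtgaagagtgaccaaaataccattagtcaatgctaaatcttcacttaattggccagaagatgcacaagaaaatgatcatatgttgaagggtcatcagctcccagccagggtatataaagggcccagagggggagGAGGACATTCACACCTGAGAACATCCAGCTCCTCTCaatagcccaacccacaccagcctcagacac
Both windows hold TATAAA upstream of the shared run, 28 bases before the start in KRTAP2-3 and 58 bases before the start in KRTAP2-4. KRTAP2-4 also holds CCAAT on the minus strand of the window, 123 bases before its start.

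KRTAP3-1, another high-sulfur KRTAP of chromosome 17, measured 5.44 and 5.02 in ORC1B14, 4.78 and 4.36 in ORC1BP32, 5.88 and 6.0 in ORC2B2, 5.32 and 5.56 in ORC2BP8, and 4.48 and 3.46 in WT. The arrays of ORC1B14, ORC2B2 and ORC2BP8 all lay above WT, ORC1BP32 overlapped WT, and the WT arrays lay further apart than those of any mutant line. It rose in ORC2B2 by 1.97 ± 0.31 (adjusted p = 0.0335) and in the mean of the 4 mutant lines by 1.32 ± 0.24 (adjusted p = 0.0366). The differences of 1.47 in ORC2BP8 (adjusted p = 0.0588), 1.25 in ORC1B14 (adjusted p = 0.1) and 0.59 in ORC1BP32 (adjusted p = 0.571) did not pass. The ORC2BP8 difference passed after quantile normalization (adjusted p = 0.0462) and without WT replicate 1 (adjusted p = 0.0263). The ORC2B2 call was lost in 5 of 17 alternatives, namely without either ORC1BP32 array, either ORC2B2 array or WT replicate 2 (highest adjusted p = 0.16). The call on the mean was lost in 7 of 17, without ORC1B14 replicate 1, ORC2BP8 replicate 2, WT replicate 2 or any array of ORC1BP32 or ORC2B2 (highest adjusted p = 0.285), and its value was 0.81 without WT replicate 2.

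KRT80, a type II keratin of the chromosome 12 cluster found in many epithelia, measured 7.41 and 6.65 in ORC1B14, 7.18 and 6.26 in ORC1BP32, 6.21 and 5.40 in ORC2B2, 7.37 and 7.19 in ORC2BP8, and 4.91 and 5.03 in WT. All 8 mutant arrays lay above both WT arrays, with the ORC2B2 arrays lowest among the mutant lines. It rose in ORC2BP8 by 2.31 ± 0.36, or 4.95-fold (adjusted p = 0.0144), in ORC1B14 by 2.06 ± 0.36, or 4.17-fold (adjusted p = 0.0397), and in the mean of the 4 mutant lines by 1.74 ± 0.28 (adjusted p = 0.0259). The differences of 1.75 in ORC1BP32 (adjusted p = 0.145) and 0.84 in ORC2B2 (adjusted p = 0.401) did not pass. ORC2B2 and ORC2BP8 differed by -1.47 (ORC2B2 minus ORC2BP8), which did not pass either (adjusted p = 0.204). The ORC2BP8 call was lost without either ORC2BP8 array and without either WT array (highest adjusted p = 0.0971). The ORC1B14 call was lost in 6 of 17 alternatives, with no filter and without ORC1B14 replicate 1, either ORC2BP8 array or either WT array (highest adjusted p = 0.237). The call on the mean was lost without either WT array (highest adjusted p = 0.188).

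**Figure D1:**
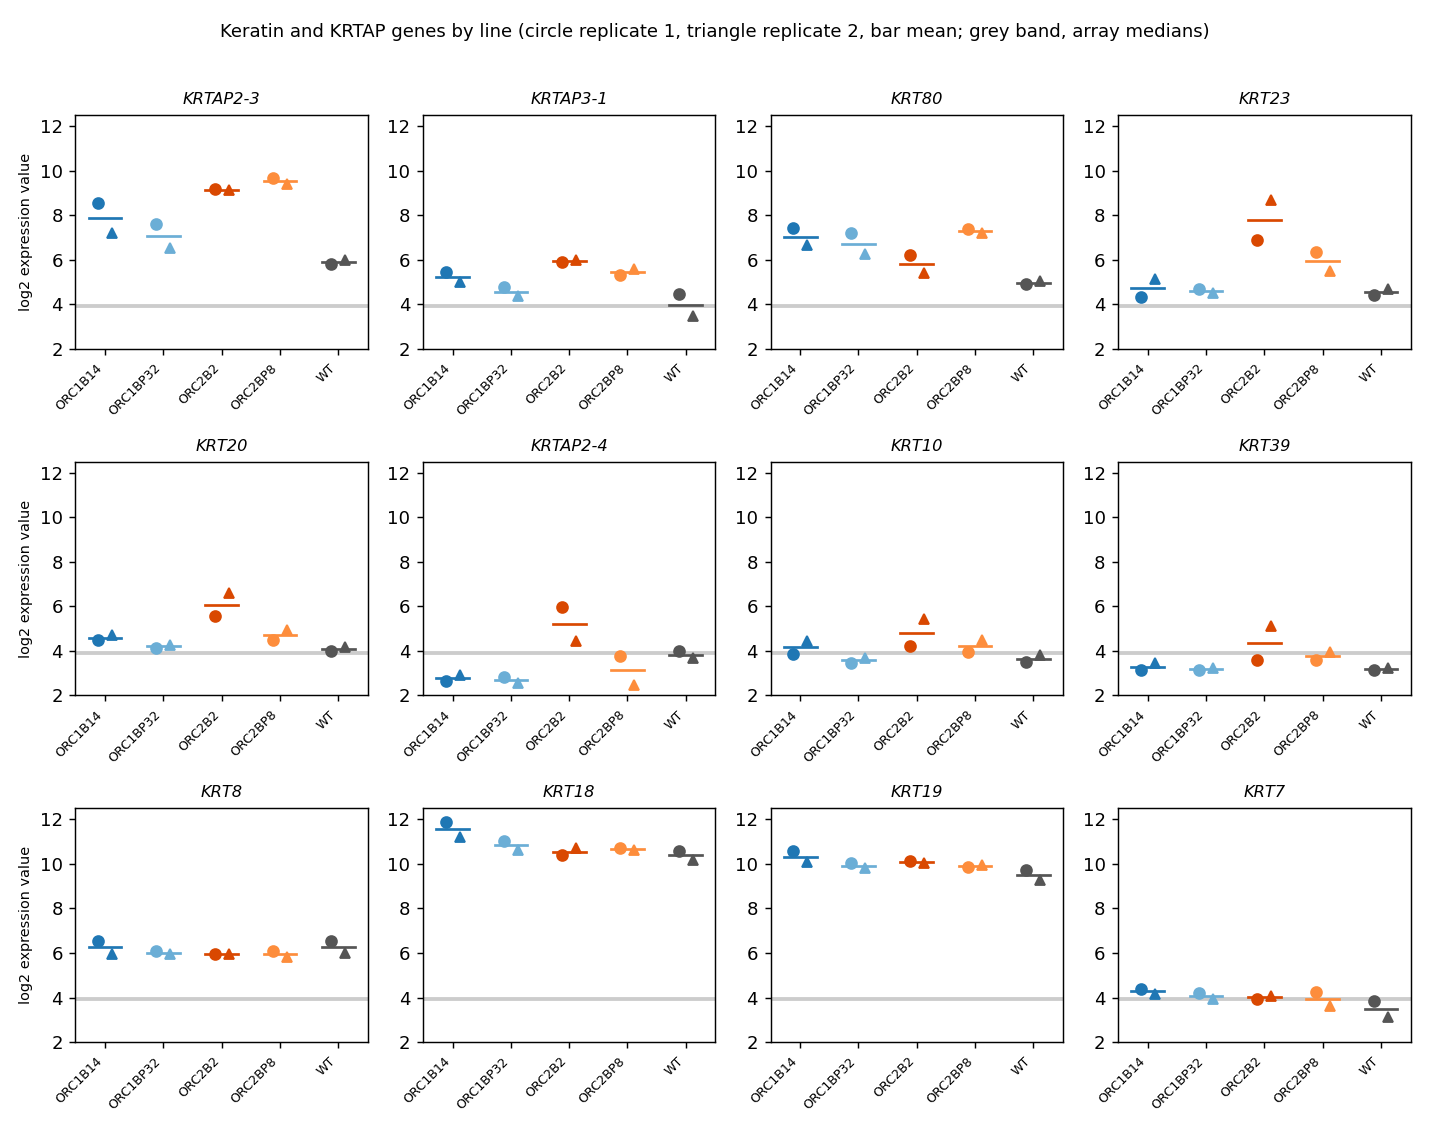
Log2 expression of members on each of the 10 arrays, by line with the mutant lines left of WT; circles are replicate 1, triangles replicate 2, bars line means, each panel is 1 probe set and the grey band spans the array medians. KRTAP2-3 is 9.66 and 9.40 on the ORC2BP8 arrays against 5.80 and 6.01 on the WT arrays, and KRT80 is above WT on all 8 mutant arrays.

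KRT23, a type I keratin, was highest in the ORC2 lines. It measured 4.32 and 5.13 in ORC1B14, 4.67 and 4.50 in ORC1BP32, 6.88 and 8.66 in ORC2B2, 6.35 and 5.50 in ORC2BP8, and 4.41 and 4.69 in WT. Every ORC2 array lay above every ORC1 and WT array, and the ORC1 arrays overlapped WT. It rose in ORC2B2 by 3.22 ± 0.49, or 9.31-fold (adjusted p = 0.0323), and differed from WT by 1.37 in ORC2BP8 (adjusted p = 0.236), by 0.17 in ORC1B14 and by 0.03 in ORC1BP32. The ORC2B2 arrays lay further apart than those of any other line, and the difference from WT was 2.33 without ORC2B2 replicate 2 and 4.11 without ORC2B2 replicate 1. ORC2B2 minus ORC2BP8 was 1.85 (adjusted p = 0.290), and it was 0.95 without ORC2B2 replicate 2 and 2.74 without ORC2B2 replicate 1 (adjusted p = 0.0473).

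KRT20, the type I keratin of intestinal epithelium, measured 4.49 and 4.72 in ORC1B14, 4.13 and 4.28 in ORC1BP32, 5.55 and 6.58 in ORC2B2, 4.48 and 4.93 in ORC2BP8, and 3.98 and 4.16 in WT. Both ORC2B2 arrays were the highest of the 10, and ORC1BP32 replicate 1 overlapped WT. It rose in ORC2B2 by 1.99 ± 0.30, or 3.98-fold (adjusted p = 0.0322), and the differences of 0.63 in ORC2BP8, 0.53 in ORC1B14 and 0.14 in ORC1BP32 did not pass. The ORC2B2 calls of KRT20 and KRT23 were each lost in 5 of 17 alternatives, on leaving out ORC2B2 replicate 2, any 1 WT array or any 1 array of ORC1BP32 (adjusted p at most 0.15 for each). Of 9 named genes of a list of 15 for intestinal differentiation, 6 were tested and limma called 0 in any comparison with WT, with 0 at an unadjusted p under 0.05. Of all genes tested, 0.0185% to 1.02% were called and 10.1% to 17.3% had an unadjusted p under 0.05. At these shares 6 genes are too few to read the counts.

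The windows before KRTAP3-1 and KRT20 are shown because their motif matches differ from those of the KRTAP2 genes. The windows of KRTAP3-1 (chr17:41009099-41009378, minus strand) and KRT20 (chr17:40885213-40885492, minus strand) are given 5′ to 3′ in GRCh38.p14, again with 30 bases after the start. Capitals mark matches, on either strand, of the motifs named after the sequences.
KRTAP3-1: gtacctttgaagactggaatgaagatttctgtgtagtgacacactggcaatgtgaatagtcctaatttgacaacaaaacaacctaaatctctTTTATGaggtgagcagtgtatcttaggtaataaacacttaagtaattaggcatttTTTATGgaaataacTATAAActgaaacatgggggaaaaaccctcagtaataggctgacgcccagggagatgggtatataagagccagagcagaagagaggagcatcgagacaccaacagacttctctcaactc
KRT20: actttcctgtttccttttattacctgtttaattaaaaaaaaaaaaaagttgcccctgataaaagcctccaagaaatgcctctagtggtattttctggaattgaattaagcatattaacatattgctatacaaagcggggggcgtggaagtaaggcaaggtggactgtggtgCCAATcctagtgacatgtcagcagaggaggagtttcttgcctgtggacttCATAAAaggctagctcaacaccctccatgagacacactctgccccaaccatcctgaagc
KRTAP3-1 holds TATAAA 89 bases before its start and TTTATG 158 and 103 bases before it, and KRT20 holds CCAAT 79 bases before its start and TTTATG on the minus strand 29 bases before it.

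Along chromosome 17 the keratins and KRTAPs form an unbroken run of 54 members among the named protein-coding genes. KRT10, KRT20, KRT23 and KRT39 lie near one another at 1 end, with the KRTAP2 and KRTAP3 genes beyond them. KRT10 and KRT39, chosen after their values were seen, measured 5.42 and 5.10 on ORC2B2 replicate 2, the highest of their 10 arrays. KRT20 and KRT23 were highest on the same array. This array was singled out after the values were seen, and KRT10 and KRT39 passed the filter only through mutant arrays, this one among them. ORC2B2 replicate 1 measured 4.21 for KRT10 and 3.57 for KRT39, against 3.49 and 3.82 for KRT10 and 3.14 and 3.22 for KRT39 in WT. Neither KRT10, a keratin of the upper epidermis, nor KRT39, a hair keratin, passed the test in any comparison. The part of that 1 array in the keratin values was not tested beyond leaving it out.

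**Figure D2:**
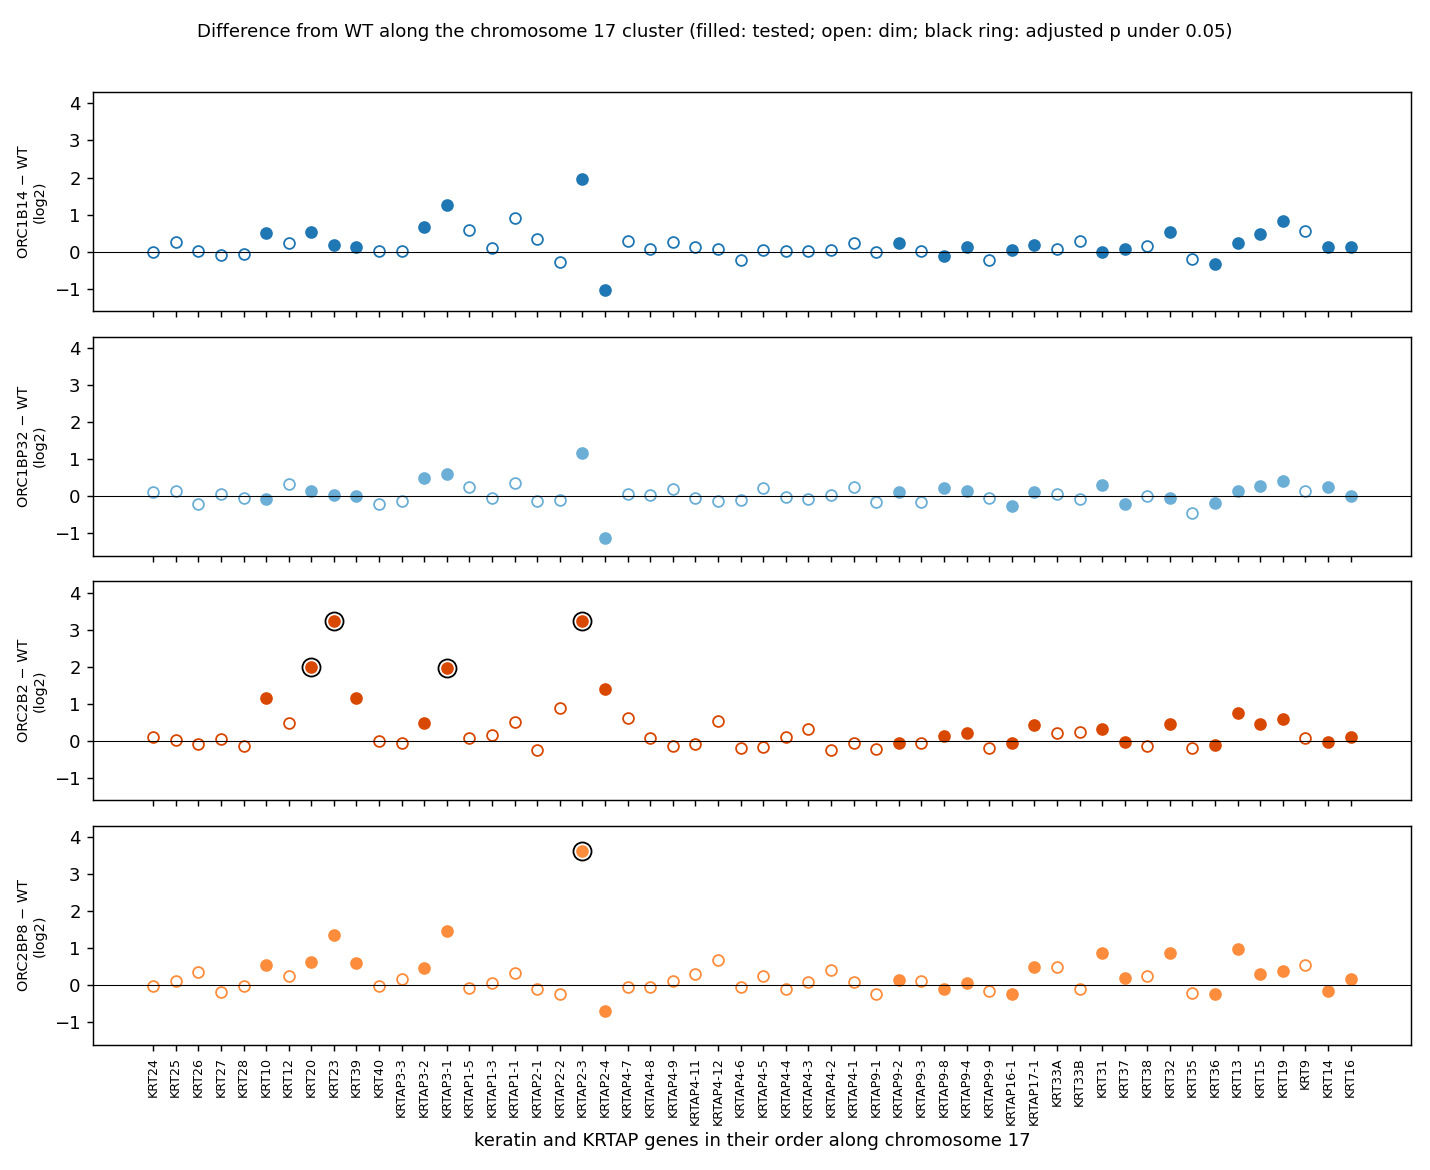
Log2 difference from WT (vertical axis) of chromosome 17 members in their order along the chromosome (horizontal axis, order only), by mutant line. KRTAP2-3 is 3.63 in ORC2BP8 and 3.24 in ORC2B2, and KRT23 is 3.22 in ORC2B2.

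As groups, with every member counted and no filter, the classes lay close to WT. The 25 keratins of chromosome 17 had median differences from WT of 0.13, 0.03, 0.11 and 0.26 in the order ORC1B14, ORC1BP32, ORC2B2, ORC2BP8, against 0.04, 0.04, 0.03 and 0.04 for all named genes. In the same order of lines, the 22 keratins of chromosome 12 had 0.12, 0.15, 0.09 and 0.19, and the 29 KRTAPs of chromosome 17 had 0.06, 0.03, 0.09 and 0.09. The 44 KRTAPs of chromosome 21 had 0.09, 0.06, 0.07 and 0.02, and the 12 of chromosome 11 had medians between -0.03 and -0.005. Over the tested members alone some medians were larger, such as 0.46 in ORC2B2 and 0.55 in ORC2BP8 for 13 keratins of chromosome 17 and 0.41 in ORC2B2 for 9 KRTAPs of chromosome 17. Those medians leave out the dim members, and 3 of the 13 keratins and 1 of the 9 KRTAPs passed the filter only through mutant arrays. Besides the called genes, the rule for named genes picked out KRTAP10-2, KRTAP23-1, KRTAP5-9 and KRTAP5-AS1, a noncoding antisense gene whose strand the arrays' design is not stated to resolve. Their differences from WT lay between -0.65 (KRTAP5-AS1 in ORC1BP32) and 0.18 (KRTAP5-9 in ORC1B14), and none passed. KRTAP5-AS1, for example, measured 4.18 and 4.23 in ORC1B14, 4.10 and 4.27 in ORC1BP32, 4.68 and 4.98 in ORC2B2, 4.66 and 4.27 in ORC2BP8, and 5.07 and 4.59 in WT.

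**Figure D3:**
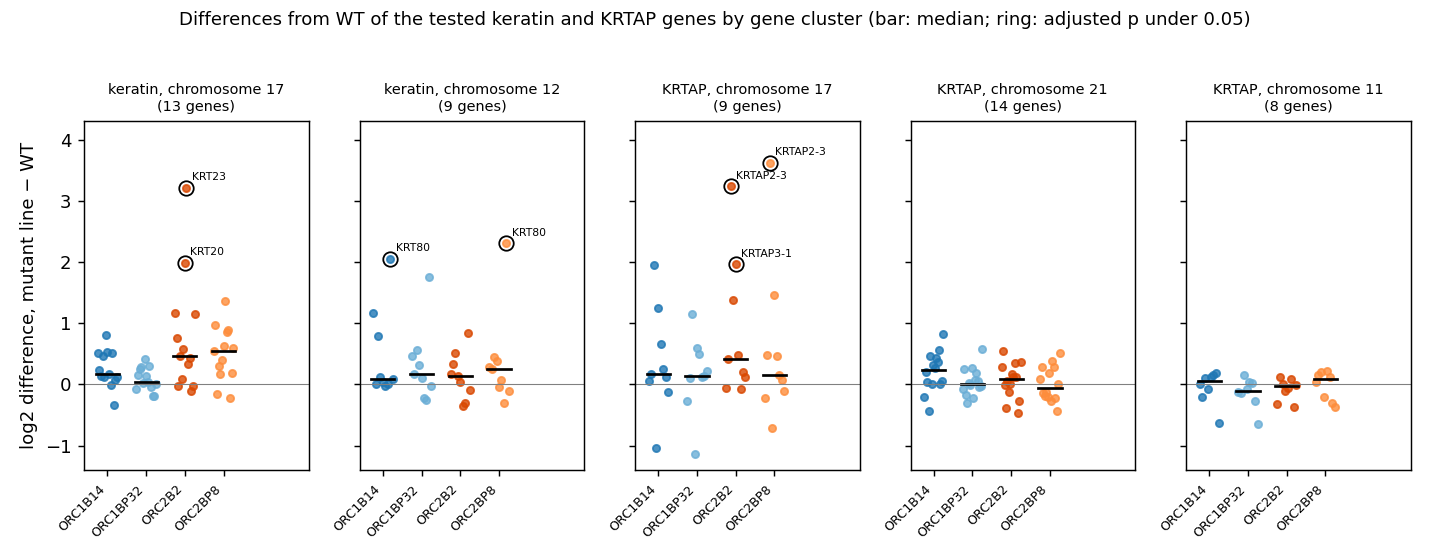
Log2 difference from WT (vertical axis) of the 53 tested members by class, for each mutant line; points are genes, rings mark called genes and bars are medians of tested members only. KRTAP2-3 at 3.63 in ORC2BP8 and KRT23 at 3.22 in ORC2B2 are far above the bars, which lie between -0.10 and 0.55.

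The ORC1 lines were then set against the ORC2 lines, with a spread taken between arrays of the same line and not between lines. Limma called 0 of 53 members, against 0.0463% of all genes, with 13 at an unadjusted p under 0.05 (24.5%, against 6.96% of all genes), and 11 of the 13 were lower in the ORC1 lines (20.8% of members, against 2.83% of all genes). All 4 ORC1 arrays lay below all 4 ORC2 arrays in 6 of 53 members (11.3%, against 1.25% of all genes) and above them in 1, KRTAP23-1 (1.89%, against 2.09%). The 6 were KRTAP2-3, KRT23, KRTAP5-AS1, KRT13, KRT39 and KRTAP17-1, of which KRT13, KRT39 and KRTAP17-1 were chosen after their values were seen. KRT39 was at or above the array median on 2 ORC2 arrays and on no other, so the filter itself fixed its direction. KRT10, KRTAP2-4 and KRT32 (chosen after its values were seen), also among the 11, would not have passed the filter without ORC2 arrays. KRTAP23-1 would not have passed without ORC1 arrays. Part of the excess of members lower in the ORC1 lines may come from the filter. With no filter, a count added after seeing the data, all ORC1 arrays lay below all ORC2 arrays in 6 of 132 members (4.55%, against 1.18% of all named genes) and above them in 1 (0.758%, against 2.02%). KRTAP2-3 differed by -1.88 ± 0.29 (ORC1 minus ORC2, adjusted p = 0.0567) and KRT23 by -2.19 ± 0.35 (adjusted p = 0.0567), and neither passed. Each passed when 1 array was left out, KRTAP2-3 without ORC1B14 replicate 1 (adjusted p = 0.0335) and KRT23 without ORC2B2 replicate 1 (adjusted p = 0.00744). KRT13, a keratin of mucosal stratified epithelium, measured 4.16, 4.37, 3.99 and 4.38 on the ORC1 arrays against 5.13, 4.45, 5.47 and 4.54 on the ORC2 arrays. The ORC1 arrays do not overlap the ORC2 arrays there, but the gap is small, and WT was 4.20 and 3.86. Without the filter, 23 of 132 members had an unadjusted p under 0.05 (17.4%, against 6.31% of all named genes). The directions of these were not counted.

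Between lines of the same mutated gene, limma called 0 of 53 members for ORC1B14 against ORC1BP32 (0.0185% of all genes; 2 members at an unadjusted p under 0.05, against 5.32%) and 0 of 53 for ORC2B2 against ORC2BP8 (0.222%; 5 members at an unadjusted p under 0.05, against 5.46%). KRTAP2-4 and KRT23 had the largest differences there, 2.09 (adjusted p = 0.158) and 1.85, both ORC2B2 minus ORC2BP8. KRTAP2-4 would not have passed the filter without the ORC2B2 arrays.

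Genes that anchor, bind or regulate keratins gave 4 called genes in the comparisons with WT, where 0.583% (ORC1B14), 0.0185% (ORC1BP32), 0.333% (ORC2B2), 0.935% (ORC2BP8) and 1.02% (mean of the 4 lines) of all genes tested were called. At most 1 gene was called per list and comparison, too few to set a share beside these. Of 9 tested desmosome genes (14 named of 15 listed), DSC3, a desmosomal cadherin, fell by 3.09 in ORC1B14 (adjusted p = 0.00083) and by 2.50 in ORC2B2 (adjusted p = 0.00472), and differed by -1.05 in ORC1BP32 and -0.34 in ORC2BP8. DSC3 was also called in the mean of the 4 mutant lines (-1.74, adjusted p = 0.0107). Between lines of the same mutated gene it was called for ORC1B14 minus ORC1BP32 (-2.04, adjusted p = 0.0254) and ORC2B2 minus ORC2BP8 (-2.16, adjusted p = 0.00777). Of 17 tested regulators (20 named of 25), GRHL2, an epithelial transcription factor, fell by 1.49 in ORC1B14 (adjusted p = 0.0384) and by 2.48 in ORC2B2 (adjusted p = 0.00472), and differed by 0.12 in ORC1BP32 and -0.28 in ORC2BP8. GRHL2 was also called in the mean of the 4 mutant lines (-1.03, adjusted p = 0.0399) and for ORC2B2 minus ORC2BP8 (-2.20, adjusted p = 0.00777). ORC1B14 minus ORC1BP32 was -1.62 and did not pass (adjusted p = 0.104). Of 10 tested cornified envelope genes (19 named of 22), ANXA1, which binds membranes, fell by 0.91 in ORC2BP8 (adjusted p = 0.0186). Of 4 tested keratin-binding and turnover genes (5 named of 15), HSPB1, a small heat shock protein, rose by 0.61 in the mean of the 4 mutant lines (adjusted p = 0.0399). Limma called 0 of 3 hemidesmosome genes and 0 of 8 other intermediate filament genes against WT, with at most 1 and 3 at an unadjusted p under 0.05 in a comparison, against 10.1% to 17.3% of all genes. The median difference of the mean of the 4 lines was -0.15 for desmosome genes, 0.04 for regulators, 0.32 for hemidesmosome genes and 0.29 for other intermediate filament genes, against 0.04 for all genes tested.

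Markers of other cells were checked because hair keratins and KRTAPs are skin genes. Of 13 named skin markers of 14, 2 were above the array median on all 10 arrays (KLK5 and KLK7), 8 were below it on all 10, and limma called 0 of 5 tested in any comparison with WT, with at most 1 at an unadjusted p under 0.05. The shares of all genes were 0.0185% to 1.02% called and 10.1% to 17.3% at an unadjusted p under 0.05, so 5 genes are too few to read these counts. The summed log2 level of the 13 was 50.5 to 50.7 in ORC1B14, 48.5 to 50.7 in ORC1BP32, 49.0 to 49.4 in ORC2B2, 48.1 to 48.4 in ORC2BP8 and 47.8 to 49.1 in WT, so ORC1B14 lay wholly above WT and the other mutant lines overlapped it. Only KLK7 and LCE2B had both ORC1B14 arrays above both WT arrays, and DSC1 had both below. KLK7 measured 9.57 and 9.16 in ORC1B14 against 8.30 and 7.97 in WT, and LCE2B was dim on all arrays. Of 3 named fibroblast markers of 9, THY1 was above the median on all arrays and DCN and LUM were below it on all. Their summed level was 9.28 to 9.37, 9.30 to 9.61, 9.14 to 9.67 and 9.29 to 9.54 in ORC1B14, ORC1BP32, ORC2B2 and ORC2BP8, and 9.10 to 9.89 in WT. Of 3 named blood markers of 9, CD68 was above the median on all arrays and LYZ and CD14 were below it on all. Their summed level was 14.6 to 15.7, 14.3 to 15.0, 13.6 to 14.2 and 14.7 to 14.9 in the same order of lines, and 13.6 to 14.1 in WT, so ORC1B14, ORC1BP32 and ORC2BP8 lay wholly above WT. In ORC1BP32 only the dim LYZ lay above WT, at 3.76 and 3.26 against 2.83 and 2.41, and CD14 and CD68 overlapped WT. CD68, a lysosomal protein of macrophages that other cells also express, measured 9.25 and 9.02 in ORC1B14, 8.03 and 8.27 in ORC1BP32, 7.73 and 8.65 in ORC2B2, 8.67 and 9.08 in ORC2BP8, and 7.76 and 8.24 in WT. It was the only blood marker tested, and it had an unadjusted p under 0.05 in ORC1B14 (difference 1.13) and ORC2BP8 (difference 0.87) but was not called. The part of these markers in the keratin results was not tested.

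The promoter windows of the family differ in letters from those of other genes. Of the 132 members, 103 had a 300-base window in RefSeq (250 bases before and 50 after the start), out of 35116 windows in all. KRT80 and KRT23 had none. Each member was counted by its first window only, while the 35116 windows were all counted, whether or not a gene had several. TATAAA was found on either strand in 72 of the 103 (69.9%, against 11.5% of all windows), in 76.1% of KRTAP windows and 56.2% of keratin windows. The GC box GGGCGG was found in 6.8% of member windows against 45% of all, and the CDX-type motif TTTATG in 36.9% against 10.6%. CCAAT was in 44.7% against 34.6%, the AP-1 motif TGACTCA in 3.88% against 4.95%, and the TCF/LEF motif CTTTGAT in 2.91% against 2.62%. The median GC content was 43.7% in member windows and 58.7% in all windows. TTTATG reads CATAAA on the opposite strand, which shares the letters ATAAA with TATAAA. Member windows share ancestry, so they are not independent. A match says only that these letters are in the window.

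**Figure D4:**
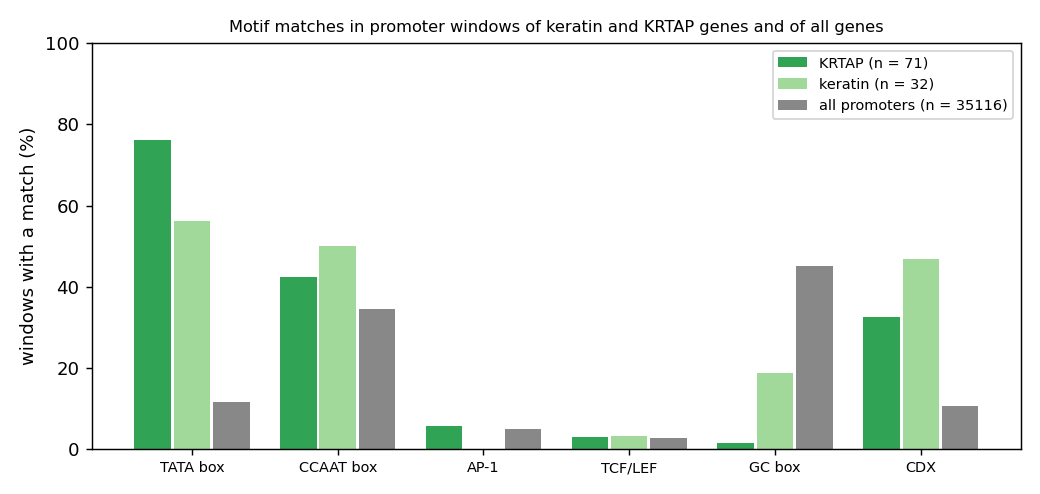
Share of promoter windows (percent) holding each motif on either strand, for KRTAP windows, keratin windows and all windows. TATAAA is in 76.1% of KRTAP and 56.2% of keratin windows against 11.5% of all windows. GGGCGG is in 1.41% of KRTAP and 18.8% of keratin windows against 45% of all.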

How the data were processed

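Expression was measured in 5 HCT116 lines with 2 arrays each. The authors deposited a table of log2 values, 1 per probe set and array, for 53617 probe sets; the log base was read from the values (1.45 to 13.71). Per the submitters' processing notes, Affymetrix Expression Console was used; neither the normalization nor the genome build is given in the sources used here. Values were used as deposited.

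Of the probe sets, 16098 had 1 gene symbol, 0 had several and 37519 were unnamed here; all 16098 matched RefSeq (GRCh38.p14), giving 14884 genes. The brightest probe set stood for each gene (2 members had more than 1 probe set). Probe sets at or above the array median on at least 2 arrays were kept, which left 10797 genes and 53 members. Differences were fitted with limma 3.58.1 in R 4.3.3 (lmFit on 5 line means, eBayes with an intensity trend, 5 residual and 5.83 prior degrees of freedom), with Benjamini-Hochberg adjustment over all genes tested, a threshold of 0.05, and two-sided tests. The script was tested on simulated data.

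The members, lists and tests were chosen with earlier results of these data known. The text names KRTAP2-3, KRT80, KRT23, KRT20, KRT7, KRT8, KRT18 and KRT19, any member called in 1 of 8 comparisons, the 3 highest and 3 lowest members of each line and the 5 highest and 5 lowest of the mean among tested members; of other genes, those called against WT, at most 4 per list. Others were chosen after their values were seen and are marked so. Alternatives were a missing or stricter filter, quantile normalization, median centring, no trend, the mean over probe sets, a replicate block and leaving out each array. Promoter windows came from RefSeq.

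Replicates of a line correlated at 0.979 to 0.984, and arrays of different lines at 0.968 to 0.989, so the ranges overlap.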

Additional observations from a re-analysis of the deposited data

How the results depend on the processing

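No gene call reversed under any alternative. KRTAP2-3 kept its call in ORC2BP8 in 17 of 17 alternatives, with adjusted p between 0.000876 and 0.0402; the other calls were lost in at least 2 of 17. For members called in ORC1B14 (1), the count was 0 with no filter, 2 with quantile normalization and 0 to 4 leaving out arrays (0 without ORC1B14 replicate 1, either ORC2BP8 array or either WT array, 4 without ORC1B14 replicate 2); in ORC1BP32 (0), 0 to 0; in ORC2B2 (4), 0 to 4, with 0 without ORC2B2 replicate 2 or WT replicate 2 and 1 without WT replicate 1 or either ORC1BP32 array; in ORC2BP8 (2), 3 with no filter and 3 with quantile normalization and 1 to 2 leaving out arrays (1 without either ORC2BP8 array or WT replicate 2); in the mean of the 4 lines (3), 0 to 4 (0 without WT replicate 2, 1 without WT replicate 1); between ORC1 and ORC2 lines (0), 0 to 3 (3 without ORC2B2 replicate 1, 1 without ORC1B14 replicate 1); between ORC1B14 and ORC1BP32 (0), 0 to 0; between ORC2B2 and ORC2BP8 (0), 0 to 2 (2 without ORC2B2 replicate 1). The third ORC2BP8 member with no filter was KRT76, with a log2 difference of -0.71 and below the median on all arrays. With the replicate block the counts were 5 in ORC1B14, 1 in ORC1BP32, 5 in ORC2B2, 3 in ORC2BP8, 5 for the mean, 4 between ORC1 and ORC2 lines and 3 between ORC2B2 and ORC2BP8. Same-numbered arrays deviated from their line means together, with correlations of 0.081 to 0.568 over the 10 line pairs, and all 5 replicate 1 arrays had higher medians (at least 3.94) than the 5 replicate 2 arrays (at most 3.89). This is a hint of a shared replicate effect from the data. The labels give none, and 1 line pair lay under 0.1 (9 of 10 above), so the main values carry no block. With it, differences that miss the threshold in the text passed: KRTAP2-3 (adjusted p = 0.00755), KRT23 (0.0208), KRT20 (0.0323) and KRTAP2-4 (0.0484) between ORC1 and ORC2 lines, KRT80 in ORC1BP32 (0.0226), KRTAP3-1 in ORC2BP8 (0.0191), and KRTAP2-3 (0.0133), KRTAP3-1 (0.0333), KRT18 (0.0136) and KRT19 (0.0267) in ORC1B14. Between ORC2B2 and ORC2BP8 these were KRT80 (0.0262), KRT20 (0.0243) and KRTAP2-4 (0.028). In the mean of the 4 lines, KRT19 (0.0354) and KRT20 passed with the block. The block also raised the genes called to 496, 57, 251, 402, 709 and 58 for the 5 comparisons with WT and for ORC1 against ORC2. Of 70 differences of named members from WT, 12 changed sign under some alternative; the cause was not tested. With 2 arrays per line, 1 array can decide a call, and dim probe sets limit what can be seen for 70 of 132 members.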
